A study of Homo sapiens with 8 samples.

Results

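The genes described here are 44 genes of DNA replication, taken from a list of origin and fork factors and matched to the arrays by gene symbol. All 44 were found among 18417 named genes, each represented by its probe set with the highest mean. They were followed in 2 established prostate cancer cell lines, LNCaP, which responds to androgen, and DU145, which grows without it. All cells were transfected, and each line had 4 constructs: the microRNA miR-29b with its negative control (nc), and an siRNA called siTET2 with its own control (siControl). TET2, which that siRNA addresses, oxidises the methyl groups of DNA. The culture medium was RPMI with fetal bovine serum, and ISOGEN extraction of RNA followed 72 hours after transfection. As 1 siRNA sequence was used, loss of TET2 and other effects of that siRNA cannot be told apart. There were 8 arrays, 1 for each line and construct, so a difference within a line is a difference of 2 arrays and has no p-value.

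Cells license each replication origin before S phase, when the origin recognition complex, CDC6 and CDT1 load the MCM ring onto DNA. The CDC7 kinase with its partner DBF4, and then MCM10, CDC45 and the GINS proteins, turn the ring into an active helicase. Behind it, polymerase alpha with primase starts each strand, polymerases epsilon and delta extend it on the PCNA clamp, and FEN1 and LIG1 join the lagging strand fragments. Most of these genes are known targets of the E2F transcription factors and are transcribed as cells enter S phase.

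The DNA before the start sites of these genes was searched for the classical E2F motif, in the 250 bases upstream of the start. The letters searched were TTTCCCGC, TTTGGCGC, TTTCGCGC and TTTGCCGC, on both strands. RefSeq (GRCh38.p14) gave windows for 39 of the 44 genes, and 15 of these genes (38.5%) held a motif, against 6.12% of the 7587 genes tested on the arrays that have a window and 3.4% of all 27305 genes with a window. Genes can have several windows. By window the shares were 31.2% of 48, 4.54% of 10906 for the genes tested and 2.79% of all 35116. Lists described further below were searched as well. By gene, a motif was found in 7 of 30 other replication genes (23.3%), 2 of 15 mitotic genes (13.3%) and 1 of 9 housekeeping genes (11.1%). The mitotic and housekeeping shares rest on too few genes to be set against that of the genes tested. These shares describe the genes on each list and are not a result of siTET2. The siTET2 difference from siControl in LNCaP had a median of -0.54 log2 units in the 15 genes with a motif and -0.55 in the 24 without. In DU145 the medians were -0.12 and -0.19. Whether the motif bears on the difference was not tested. A match is a description of the letters and not evidence of binding.

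The windows below show the variety among the genes, read towards the start site with E2F motifs in capitals. MCM6 carries the same arrangement at both of its places, where TTTGGCGC and its neighbour on the other strand, GCGCGAAA, share 4 letters. E2F1 itself has a pair of motifs close to its start. GINS1 and RRM1 are shown because they were among the genes with the lowest p-values in the fit of both lines and held no motif in the 250 bases.
MCM6 (chr2:135876444-135876603, minus strand): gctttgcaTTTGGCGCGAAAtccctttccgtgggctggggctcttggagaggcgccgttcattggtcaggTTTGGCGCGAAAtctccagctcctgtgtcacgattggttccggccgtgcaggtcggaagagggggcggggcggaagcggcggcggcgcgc
MCM7 (chr7:100101398-100101597, minus strand): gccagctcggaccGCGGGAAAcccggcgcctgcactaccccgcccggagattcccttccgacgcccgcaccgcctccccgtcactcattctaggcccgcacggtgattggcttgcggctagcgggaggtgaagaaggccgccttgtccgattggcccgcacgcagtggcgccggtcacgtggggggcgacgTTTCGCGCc
PCNA (chr20:5126623-5126702, minus strand): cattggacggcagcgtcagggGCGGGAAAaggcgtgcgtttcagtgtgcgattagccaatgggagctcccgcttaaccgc
POLA2 (chr11:65261882-65261961, plus strand): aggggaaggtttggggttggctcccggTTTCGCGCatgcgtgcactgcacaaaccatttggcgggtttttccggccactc
RFC3 (chr13:33818069-33818148, plus strand): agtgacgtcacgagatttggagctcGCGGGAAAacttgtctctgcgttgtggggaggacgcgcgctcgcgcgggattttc
GINS2 (chr16:85688955-85689014, minus strand): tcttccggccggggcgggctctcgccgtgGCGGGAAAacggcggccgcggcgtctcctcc
DTL (chr1:212035688-212035747, plus strand): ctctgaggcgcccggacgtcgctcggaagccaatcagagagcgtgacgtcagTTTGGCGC
E2F1 (chr20:33686386-33686445, minus strand): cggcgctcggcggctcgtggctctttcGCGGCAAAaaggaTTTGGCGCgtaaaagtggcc
GINS1 (chr20:25407553-25407672, plus strand): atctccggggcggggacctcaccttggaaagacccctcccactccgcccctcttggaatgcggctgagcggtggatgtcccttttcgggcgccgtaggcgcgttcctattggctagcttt
RRM1 (chr11:4094565-4094684, plus strand): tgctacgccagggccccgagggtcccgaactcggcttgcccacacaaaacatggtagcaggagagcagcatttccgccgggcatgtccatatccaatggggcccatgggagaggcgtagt

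The other agent is a microRNA, which lowers messages that pair with its seed, bases 2 to 8. The labels do not name the arm that was transfected, and the arm shown is the guide commonly meant by miR-29b. RefSeq gives the same mature sequence at both of its loci, on chromosomes 1 and 7, with the seed in capitals.
hsa-miR-29b-3p: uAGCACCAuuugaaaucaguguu

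The levels matched the labels of cell line and of siTET2. TET2, the gene addressed by the siRNA, was 9.01 with siControl and 7.89 with siTET2 in LNCaP, and 7.85 and 6.60 in DU145 (log2 level). With miR-29b it was 8.59 in LNCaP, where nc had 9.24, and 7.79 in DU145, where nc had 7.96. The DU145 siControl level of 7.85 was close to that of miR-29b, so TET2 gave no check of the DU145 miR-29b array. Of 6 LNCaP markers measured, 6 exceeded the median gene in every LNCaP array and 2 in every DU145 array. Of 6 DU145 markers, 6 did so in DU145 and 0 in LNCaP. Among 5 markers of immune cells and fibroblasts, 0 or 1 did. The median over all probe sets was between 7.10 and 7.17 in LNCaP and between 6.59 and 6.66 in DU145, so levels are compared within a line.

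With siTET2, the replication genes were lower as a group in LNCaP and less so in DU145. In LNCaP, 43 of the 44 lay above a level floor, which asked that the higher of the 2 arrays reach its median over named genes. All 43 were lower with siTET2 than with siControl, against 46.9% of the 9422 genes above the floor, and their median difference was -0.54 (all genes 0.01). At least 1.5-fold lower were 16 of the 43, against 2.37% of all genes, and 0 were as much higher (0.382%). In DU145, 34 of 43 were below 0, against 52.7% of all genes, with a median of -0.17 (all genes -0.01), and 1 was at least 1.5-fold lower, against 1.59% of all genes, with 0 higher (0.955%). DBF4 was below the floor in every array. Fewer cells in S phase and less RNA of these genes per cell cannot be told apart in such bulk samples.

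The size of the LNCaP difference depended on the control. With nc in place of siControl, the median of the 43 genes was -0.31, 41 of them were below 0 (46.0% of all genes), and 2 were at least 1.5-fold lower (0.506% of all genes). These 2 were MCM10 and GINS1. The siControl array of LNCaP was itself above nc for most of these genes, with 4 of the 43 below 0 (46.1% of all genes) and a median of 0.20. In DU145 the control arrays differed by a median of -0.02, with 23 of 43 below 0 (57.7% of all genes). Against nc the DU145 median for siTET2 was -0.20, with 34 of 43 below 0 (57.6% of all genes).

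**Figure D1:**
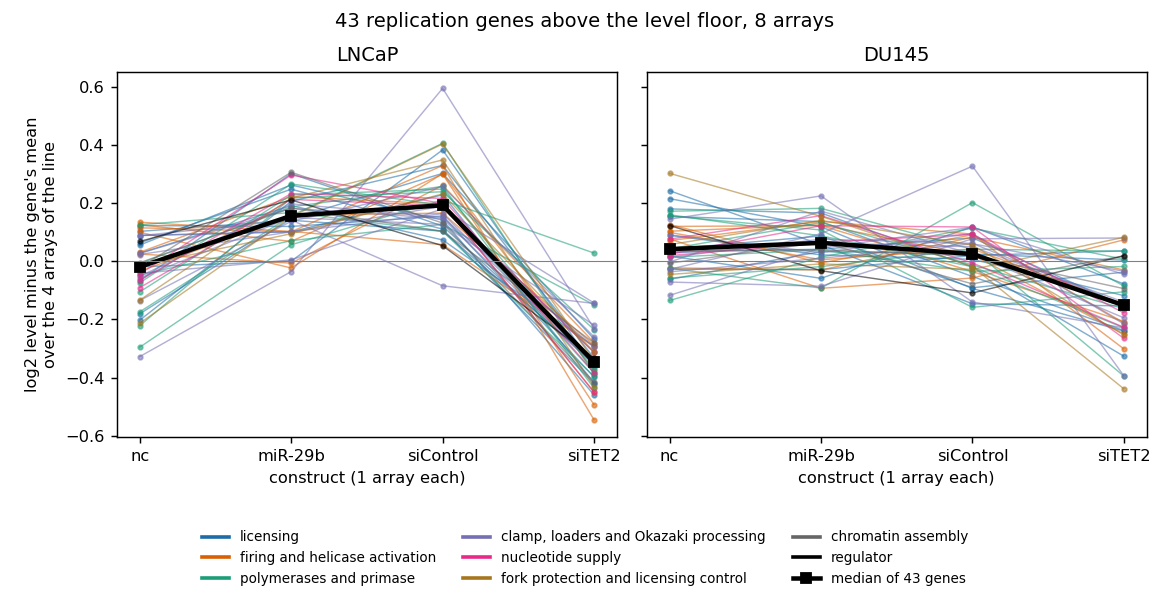
Each thin line is 1 of the 43 replication genes above the level floor, coloured by role, and shows its log2 level in the 4 arrays of a line minus its mean over them; squares are the median. In LNCaP nearly every line is lowest at siTET2 and many peak at siControl, while in DU145 the spread is smaller and the siTET2 median is again the lowest.

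A comparison that leans on no single control is the order of the 4 arrays of a line. The siTET2 array was the lowest of the 4 for 41 of the 43 genes in LNCaP, against 23.2% of all genes tested. In DU145 it was the lowest for 27 of the 43, against 38.4%. Both held for 26 of the 43 genes, against 13.7% of all genes. The exceptions in LNCaP were PRIM2 and DSCC1, whose lowest array was nc.

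What siTET2 did in the lines jointly was tested with limma, using the 8 arrays in a model of line plus construct that leaves 3 residual degrees of freedom. None of the 43 genes passed a Benjamini-Hochberg adjusted p of 0.05 over the 9209 genes tested, where 35 genes (0.38%) did. All 43 estimates were below 0, as were 50.1% of all genes, and their median was -0.37. At an unadjusted p below 0.05, 30 of the 43 were lower and 0 higher, against 8.27% of all genes lower and 5.47% higher. Without the siControl array of LNCaP this count was 7, and without its siTET2 array 12. With nc as the control it was 17 and the median -0.24. The share of all genes at this p was not taken for these alternative fits. No construct was repeated within a line, so the residual spread behind these p-values joins noise between arrays with construct differences that varied between the lines. The fit cannot separate these parts. The labels name no separate cultures, so the noise between arrays may be technical.

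The 5 genes with the lowest adjusted p-values differed in how far they depended on the control. DSCC1, a subunit of an alternative clamp loader needed for sister chromatid cohesion, had a common difference of -0.77 (SE 0.14, limma adjusted p = 0.0645), but -0.13 with nc as the control, since its siControl arrays lay above nc by 0.92 in LNCaP and 0.35 in DU145. POLD1, the catalytic subunit of polymerase delta, had -0.47 (SE 0.08, limma adjusted p = 0.0654), and GINS1 had -0.59 (SE 0.11, limma adjusted p = 0.0680). RRM1, the large subunit of ribonucleotide reductase, had -0.49 (SE 0.10, limma adjusted p = 0.0766). FEN1, the flap endonuclease of lagging strand synthesis, had -0.41 (SE 0.09, limma adjusted p = 0.105). With nc as the control the common differences of these 4 were -0.54 for POLD1, -0.50 for GINS1, -0.30 for RRM1 and -0.37 for FEN1. With a variance prior that follows the mean level, limma called DSCC1, GINS1 and RRM1 (adjusted p = 0.0395, 0.0310 and 0.0313). That fit called 113 of all 9209 genes. With a stricter floor limma called GINS1, RRM1 and FEN1 (adjusted p = 0.0342, 0.0367 and 0.0489), and 87 of the 4605 genes tested. Only 30 of the 43 genes passed that floor, and DSCC1 and POLD1 were not among them.

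**Figure D2:**
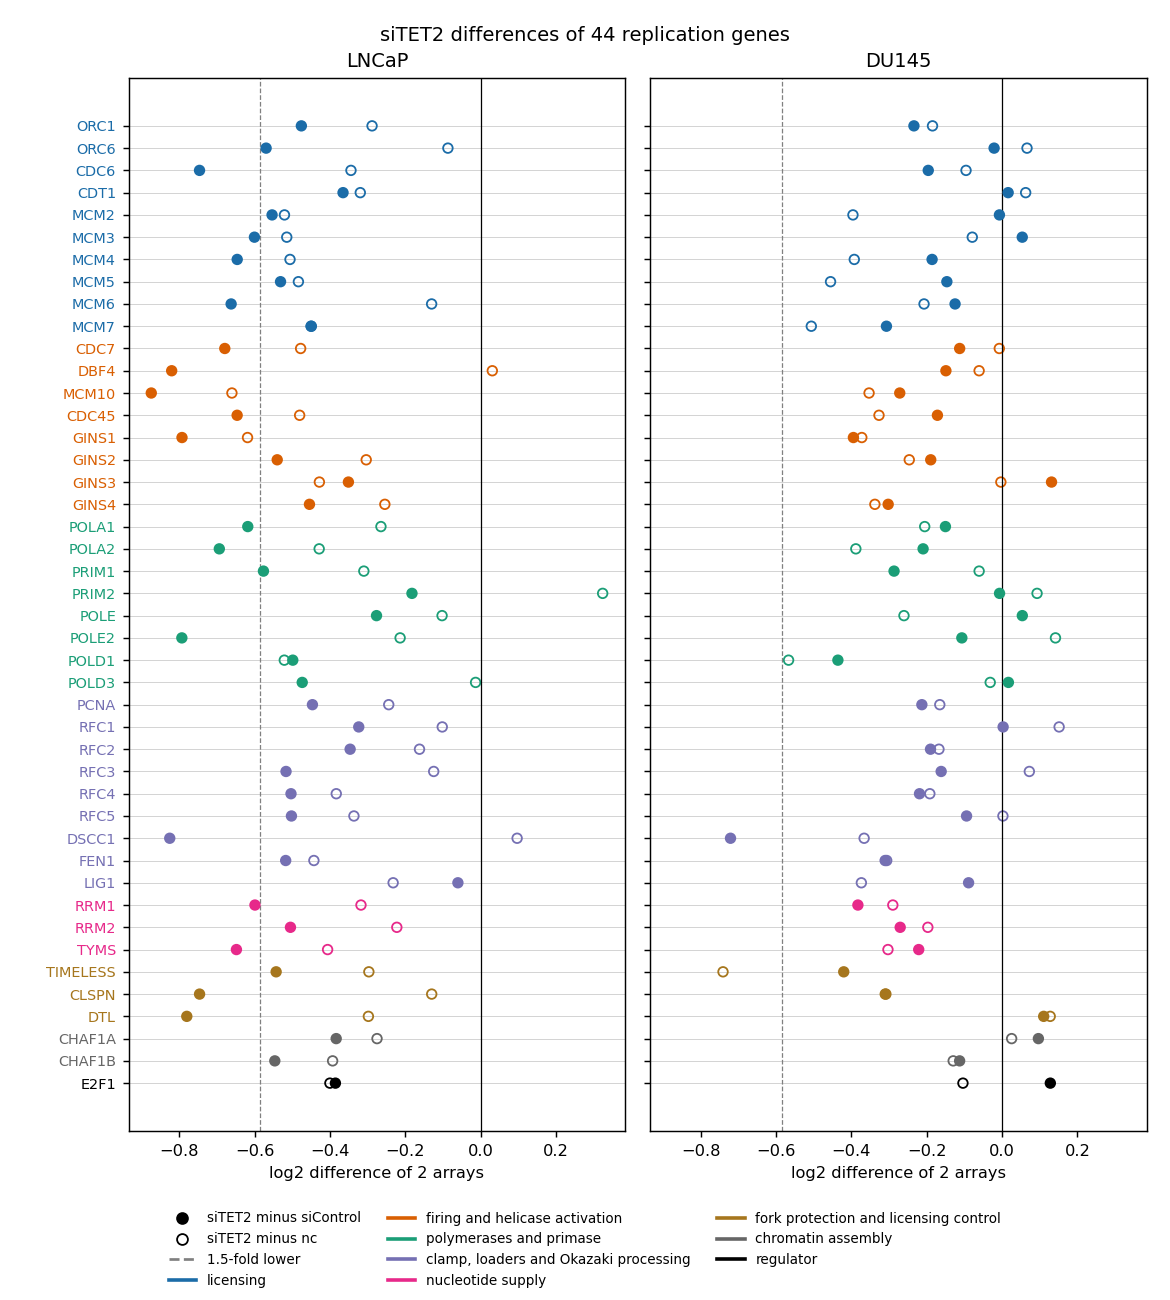
The log2 difference of siTET2 from siControl (filled) and from nc (open) for all 44 genes in both lines, grouped and coloured by role, with a dashed line at 1.5-fold lower. In LNCaP the filled points lie between -0.87 and -0.06 and most open points nearer to 0; in DU145 DSCC1 is the only filled point beyond the dashed line.

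The licensing factors come first in the cell cycle. All 10 were below 0 in LNCaP, with a median of -0.56, and 8 of 10 in DU145, with a median of -0.14. CDC6, which helps to load the MCM ring, was 10.20 with nc, 10.22 with miR-29b, 10.61 with siControl and 9.86 with siTET2 in LNCaP, and 10.19, 10.11, 10.29 and 10.10 in DU145. The siTET2 array was thus the lowest in each line. In LNCaP it differed by -0.34 from nc, the next lowest, where the other 3 arrays spanned 0.40. In DU145 it was lowest by 0.02. ORC1, a subunit of the origin recognition complex, differed by -0.48 from siControl in LNCaP and by -0.23 in DU145. ORC6, another subunit, differed by -0.57 and -0.02, and from nc by -0.09 and 0.07. CDT1, the loading factor that is destroyed once replication begins, differed by -0.37 in LNCaP and 0.02 in DU145.

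The 6 subunits of the MCM ring were lower with siTET2 in LNCaP by similar amounts, from -0.45 (MCM7) to -0.66 (MCM6) against siControl. Against nc, 5 of them were between -0.45 and -0.52, and MCM6 was at -0.13, as its siControl array lay 0.53 above nc. MCM2 was 10.12, 10.12, 10.16 and 9.60 in LNCaP, in the order given for CDC6, where the other 3 arrays were within 0.04 and siTET2 lay 0.52 below the lowest of them. In DU145 the same gene was 9.87, 9.68, 9.48 and 9.47, so siTET2 and siControl were alike and both below nc. Over the 6 subunits in DU145 the median was -0.14 against siControl and -0.39 against nc, and siControl lay below nc for all 6 subunits (median -0.20). MCM7 had the largest difference of the ring from siControl there (-0.31), with levels of 10.78, 10.77, 10.58 and 10.28 and siTET2 below each other array.

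Among the genes of origin firing and helicase activation, the 7 above the floor had medians of -0.65 in LNCaP and -0.19 in DU145. MCM10, which helps to open the loaded helicase, was 9.84, 9.83, 10.05 and 9.18 in LNCaP (nc, miR-29b, siControl and siTET2), a difference of -0.87 from siControl (1.83-fold) and -0.66 from nc. In DU145 it was 9.94, 9.97, 9.86 and 9.59. This LNCaP difference was the largest of the 43 genes. The siTET2 array was lowest in both lines, and the other 3 were within 0.23 in LNCaP and 0.10 in DU145. GINS1 was 11.02, 10.96, 11.19 and 10.40 in LNCaP and 10.06, 10.13, 10.09 and 9.69 in DU145. Its siTET2 value lay apart from the other 3 arrays in each line, by 0.56 in LNCaP and 0.37 in DU145.

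The other GINS subunits did not all follow GINS1. GINS2 differed from siControl by -0.54 in LNCaP and -0.19 in DU145, and GINS4 by -0.45 and -0.30. GINS3 differed by -0.35 in LNCaP but by 0.13 in DU145, where it was equal to nc (9.04 each). CDC45, the partner of GINS and MCM in the active helicase, differed by -0.65 and -0.17. CDC7, the firing kinase, differed by -0.68 in LNCaP and -0.11 in DU145, and from nc by -0.48 and -0.01. DBF4, its activating subunit, was 5.17, 5.29, 6.02 and 5.20 in LNCaP, so its -0.82 from siControl was 0.03 from nc.

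Among the polymerases and primase, 8 of 8 were below 0 in LNCaP, with a median of -0.54, and 6 of 8 in DU145, with a median of -0.13. POLD1 was 8.34, 8.38, 8.32 and 7.82 in LNCaP and 8.27, 8.28, 8.14 and 7.70 in DU145 (nc, miR-29b, siControl and siTET2). The other 3 arrays were within 0.06 in LNCaP and 0.14 in DU145, and siTET2 lay 0.50 and 0.44 below the lowest of them. POLE2, a subunit of polymerase epsilon, was 8.95, 9.28, 9.53 and 8.74 in LNCaP, a range in which nc lay nearer to siTET2 than to siControl. In DU145 it was 11.01, 11.16, 11.26 and 11.16, and siTET2 was above nc.

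The catalytic subunit POLE differed by -0.28 in LNCaP and 0.05 in DU145. POLA1 and POLA2, the large and the regulatory subunit of polymerase alpha, differed by -0.62 and -0.69 in LNCaP and by -0.15 and -0.21 in DU145. The catalytic primase subunit PRIM1 differed by -0.58 and -0.29. Its partner PRIM2 differed by -0.18 and -0.01 from siControl and lay 0.32 and 0.09 above nc. POLD3, an accessory subunit of polymerase delta, differed by -0.47 in LNCaP but by -0.01 from nc, and by 0.02 in DU145.

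The clamp, its loaders and the enzymes of lagging strand maturation were 9 genes, all below 0 in LNCaP (median -0.50) and 8 below 0 in DU145 (median -0.19). DSCC1 was 7.69, 7.98, 8.61 and 7.78 in LNCaP and 7.77, 7.90, 8.13 and 7.41 in DU145. In LNCaP its siControl array was far above the rest and siTET2 lay 0.10 above nc, while in DU145 siTET2 was the lowest array, 0.37 below nc. PCNA, the sliding clamp, was 10.58, 10.83, 10.78 and 10.33 in LNCaP and 10.02, 10.08, 10.07 and 9.86 in DU145, so siTET2 was lowest in each. FEN1 was 9.89, 9.91, 9.97 and 9.45 in LNCaP and 9.92, 9.86, 9.92 and 9.61 in DU145, with 3 arrays close together and siTET2 below them. LIG1, the ligase that seals the fragments, differed by -0.06 and -0.09 from siControl, the smallest LNCaP difference of the 43 genes, and by -0.23 and -0.37 from nc.

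The 5 subunits of replication factor C, which loads PCNA, had a median of -0.50 against siControl in LNCaP and -0.16 against nc. RFC4 was the lowest of them against nc, at -0.38, and RFC1, the large subunit, the highest, at -0.10. In DU145 their medians were -0.16 against siControl and 0.00 against nc. The DU145 control arrays were thus ordered unlike those of the MCM ring: siControl lay above nc for all 5 loader subunits (median 0.10).

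The 3 genes of nucleotide supply were lower with siTET2 against either control in each line. RRM1 was 10.98, 11.28, 11.27 and 10.67 in LNCaP and 10.74, 10.83, 10.83 and 10.45 in DU145. RRM2, the small subunit of the same enzyme, differed by -0.51 and -0.27 from siControl and by -0.22 and -0.20 from nc. TYMS, which makes thymidylate, was 11.21, 11.55, 11.45 and 10.80 in LNCaP and 11.85, 11.93, 11.77 and 11.55 in DU145. For all 3 the siTET2 array was the lowest of each line.

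Of the genes of fork protection and licensing control, TIMELESS and CLSPN were lowest with siTET2 in both lines, and DTL in LNCaP only. TIMELESS, which holds the helicase and polymerases together with its partner TIPIN, was 9.08, 9.19, 9.33 and 8.78 in LNCaP and 9.05, 8.90, 8.73 and 8.30 in DU145. It was the only one of the 43 genes at least 1.5-fold below nc in DU145 (-0.74; 2.47% of all genes), and siControl lay -0.32 from nc there. CLSPN, an adaptor of the replication checkpoint, differed by -0.75 in LNCaP and -0.31 in DU145 from siControl, and by -0.13 and -0.31 from nc. Its other probe set gave -0.78 and -0.20. DTL, the substrate receptor of the ligase that destroys CDT1, was 10.49, 10.84, 10.98 and 10.19 in LNCaP and 10.82, 10.86, 10.84 and 10.95 in DU145. Its siTET2 array was the lowest in LNCaP and the highest in DU145.

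Chromatin assembly factor 1 deposits histones behind the fork. Its subunits CHAF1A and CHAF1B differed by -0.38 and -0.55 in LNCaP and by 0.10 and -0.11 in DU145. E2F1, a transcription factor of this gene group, was 9.43, 9.58, 9.42 and 9.03 in LNCaP, where siTET2 stood -0.39 from siControl and -0.40 from nc. In DU145 it was 9.08, 8.93, 8.85 and 8.98, so siTET2 lay between the controls.

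To see which genes were lower against each control, a rule added after the data were seen asked for a difference of at least 1.3-fold from both. In LNCaP 16 of the 43 genes met it, against 1.68% of all genes tested. They were MCM2, MCM3, MCM4, MCM5, MCM7, MCM10, CDC7, CDC45, GINS1, POLA2, POLD1, RFC4, FEN1, TYMS, CHAF1B and E2F1. In DU145 POLD1 and TIMELESS met it, 2 of 43 against 3.38% of all genes, and POLD1 alone met it in both lines (0.576% of all genes).

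**Figure D3:**
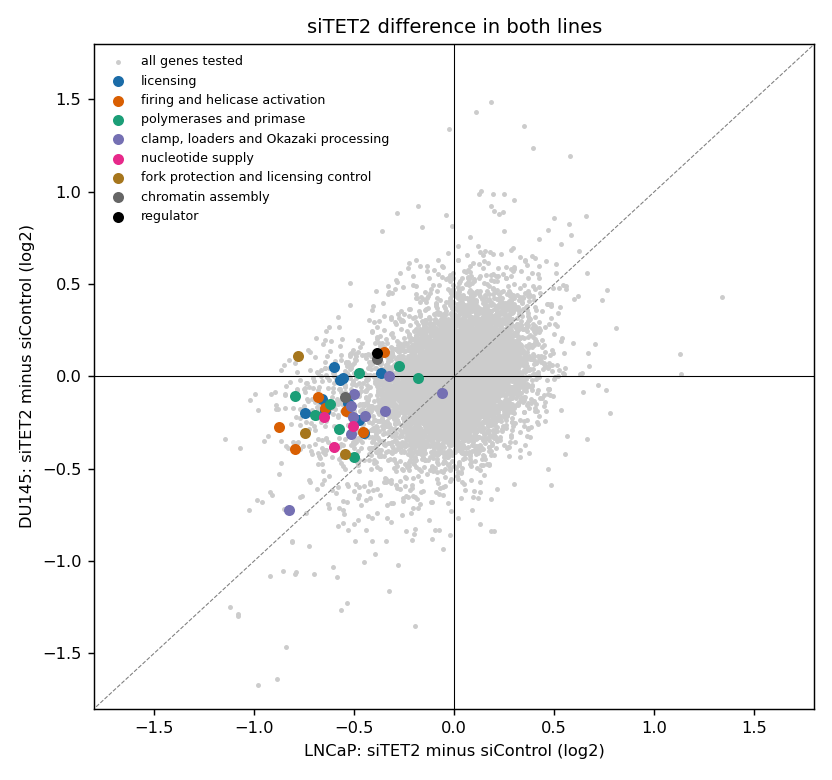
The log2 difference of siTET2 from siControl in LNCaP (horizontal) and DU145 (vertical) for all 9209 genes tested (grey) and the 43 replication genes among them, coloured by role, with a dashed line where both are equal. All 43 lie left of 0 and all but LIG1 lie above the dashed line; MCM3 (-0.60 and 0.05) and DTL (-0.78 and 0.11) are among those above 0 in DU145.

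The difference from siControl was lower in LNCaP than in DU145 for 42 of the 43 genes, LIG1 being the exception, against 47.7% of all genes tested. This leaned on the control. The medians in LNCaP and DU145 were -0.54 and -0.17 against siControl, but -0.31 and -0.20 against nc. Against nc the count was not taken, and further genes went the other way, POLD1, TIMELESS and CLSPN among them. A test between the lines was added after the data were seen, in limma with 1 term more and 2 residual degrees of freedom. Its term sets the siTET2 array against the mean of the other 3 arrays of its line, not against siControl alone. It was below 0, or lower in LNCaP, for 40 of the 43 genes (43.7% of all genes), the exceptions being DSCC1, LIG1 and TIMELESS. It called 0 of the 43 genes after adjustment over 9209 genes (0.0% of all genes). At an unadjusted p below 0.05, 12 of the 43 were lower in LNCaP, against 4.97% of all genes. The lowest adjusted p was 0.265, for MCM3, whose term was -0.56 (SE 0.15). Across the 43 genes the LNCaP and DU145 differences, which share no array, correlated with r = 0.42 (Pearson) and rho = 0.35 (Spearman). This is across genes, which are not independent replicates.

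The question of the miR-29b arrays was whether the microRNA acted on these genes in the way the siRNA did. In LNCaP, 6 of the 43 genes were below 0 against nc (44.9% of all genes), the median was 0.19, and 0 of 43 were at least 1.5-fold lower (0.244% of all genes) or higher (0.604%). POLD3 (0.44), MCM6 (0.41) and CLSPN and ORC1 (0.37 each) were highest, and CDC7 (-0.12) and GINS1 (-0.06) lowest. Against siControl the median was -0.02, with 24 of 43 below 0 (49.3% of all genes), and DSCC1 alone was at least 1.5-fold lower (-0.63; 0.783% of all genes). The miR-29b array was the lowest of the 4 for 0 of the 43 genes in LNCaP, against 18.9% of all genes.

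By role, the LNCaP medians of miR-29b minus nc were 0.35 for fork protection and licensing control, 0.33 for polymerases and primase, 0.30 for nucleotide supply, 0.26 for chromatin assembly, 0.17 for licensing, 0.16 for clamp and loaders, 0.14 for E2F1 and -0.03 for firing and helicase activation. Against siControl, in the same order, they were -0.14, -0.04, 0.02, 0.13, 0.00, -0.06, 0.16 and -0.23, so most depended on the control. In DU145 the 43 genes had a median of 0.01 against nc, with 18 below 0 (65.1% of all genes), and lay between -0.19 (MCM2) and 0.18 (RFC4). No gene of the 43 reached 1.5-fold there (0.0532% of all genes lower and 0.0638% higher). In the limma fit common to both lines, limma called 0 of the 43 genes for miR-29b after adjustment (0.0% of 9209 genes). At an unadjusted p below 0.05, 0 of the 43 were lower (2.65% of all genes) and 0 higher (1.09%).

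**Figure D4:**
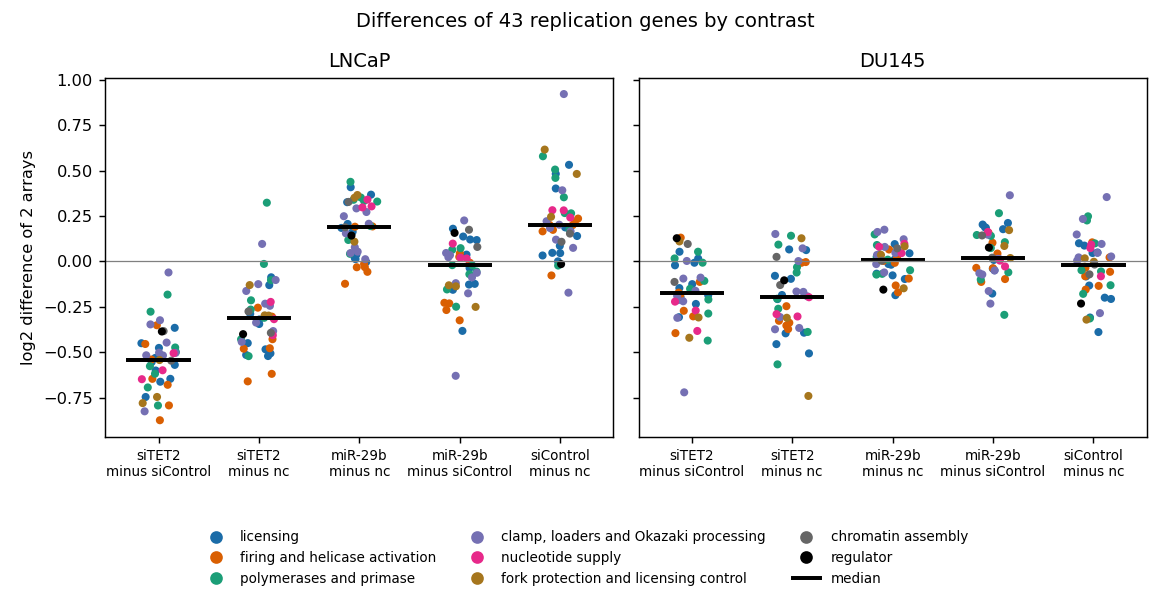
Differences of the 43 genes in each line, with 1 point per gene coloured by role and a bar at the median. The LNCaP medians are -0.54 and -0.31 for siTET2, 0.19 and -0.02 for miR-29b and 0.20 between the controls; in DU145 only the siTET2 medians, -0.17 and -0.20, are away from 0.

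The difference between the control arrays is the only measure of background within a line. As siControl and nc are different constructs, it joins differences of construct with noise between arrays. In LNCaP siControl was at least 1.5-fold above nc for DSCC1 (0.92) and CLSPN (0.62), 2 of 43 against 1.79% of all genes, and POLE2 lay just under at 0.58. The root mean square of this difference over all 44 genes was 0.34 in LNCaP and 0.17 in DU145. In the common fit, limma called 0 of the 43 genes for siControl minus nc after adjustment (0.0% of 9209 genes). At an unadjusted p below 0.05, 1 of the 43 was lower (6.29% of all genes) and 4 were higher (6.87%).

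Other genes of replication, listed by function but with earlier results of these data known, had a smaller median difference. It was not tested against the 43. Of 39 listed, 38 were measured and 37 tested, and 0 passed limma's adjusted threshold in either direction (0.38% of all genes). Their common median was -0.19, with 31 of 37 below 0 (50.1% of all genes). At an unadjusted p below 0.05 in limma, 14 were lower (8.27% of all genes). TIPIN, the partner of TIMELESS, had -0.56 (SE 0.10, limma adjusted p = 0.0605) and RNASEH2A, which removes ribonucleotides from DNA, had -0.46 (SE 0.09, limma adjusted p = 0.0767). ATAD5 (-0.39), which unloads PCNA, MCM8 (-0.38), WDHD1 (-0.37) and the thymidine kinase TK1 (-0.36) followed.

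Genes of other phases were measured alongside. The 20 mitotic genes had a common median of -0.42, with 20 of 20 below 0 (50.1% of all genes). At an unadjusted p below 0.05 in limma, 19 were lower (8.27% of all genes). In LNCaP their median was -0.68 and 14 were at least 1.5-fold lower (2.37% of all genes), where the 43 replication genes had -0.54 and 16. In DU145 the medians were -0.18 and -0.17. Of the mitotic genes, 1 passed the adjusted threshold (0.38% of all genes): CDK1, the mitotic kinase, fell, with -0.83 (SE 0.10, limma adjusted p = 0.0211). Among 19 regulators of the cell cycle tested, 0 passed and the median was -0.12. At an unadjusted p below 0.05, 3 were lower (8.27% of all genes) and 1 higher (5.47%). Of these, CDKN1A, an inhibitor of cyclin-dependent kinases, was highest, with 0.58 (SE 0.10, limma adjusted p = 0.0605). E2F8 (-0.53), CCNE2 (-0.40), CCNA2 (-0.35) and E2F7 (-0.29) were lowest. Of 10 housekeeping genes 0 passed, and their median was -0.03. Whether these movements bear on the replication genes was not tested.

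Where a gene stands within its array differed between the lines for some of the 44. POLE2 lay at a mean percentile of 73.0 in LNCaP and 95.7 in DU145, the widest gap. Of the others, 11 lay over 5 percentile points higher in DU145, among them PRIM2 (67.1 and 81.1), CLSPN (56.9 and 68.9), CHAF1A (71.1 and 82.2) and MCM5 (78.4 and 88.8). POLA1 (70.2 and 62.8) and GINS1 (93.5 and 86.8) lay over 5 points higher in LNCaP. These are descriptions, as the arrays of the lines may have been normalized apart.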

How the data were processed

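The authors deposited 1 table of log2 values for 33297 probe sets on 8 arrays. Per the submitters' processing notes they were made with Affymetrix Expression Console and RMA; versions, and which arrays were normalized together, are not given in the sources used here. Depth has no meaning for arrays, and their number limits the precision. Gene names came from the platform annotation, checked by Entrez identifier against RefSeq (0 symbols changed), leaving out probe sets that list more than 1 gene. Differences were taken from the deposited values. The fits used limma 3.58.1 (lmFit, eBayes) in R 4.3.3 on the upper 9209 genes by mean level, adjusting p-values over all 9209 by Benjamini-Hochberg. The common fit was run on simulated data, to see that a change put in was recovered on average. The simulated noise was independent and the change the same in both lines, so that run is no check of the p-values given here. The genes, lists and roles were chosen with earlier results of these data known. All 44 genes were named, and up to 6 of each other list by size of the common siTET2 difference. Alternatives were the floor, probe set, normalization, control, fold, variance prior, line term and each array left out.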

Additional observations from a re-analysis of the deposited data

Results flagged for a closer look

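MCM3 and DTL were over 1.5-fold lower with siTET2 than with siControl in LNCaP (-0.60 and -0.78) and above 0 in DU145 (0.0535 and 0.11). CLSPN was 0.62 higher with siControl than with nc in LNCaP and -0.0017 from it in DU145. The median of the 43 genes between the controls was 0.20 in LNCaP and -0.0171 in DU145. Each had a different sign in the lines, which rests on 1 array per group. They were not the only ones. For siTET2 minus siControl, CDT1, GINS3, POLE, POLD3, RFC1, CHAF1A and E2F1 were also below 0 in LNCaP and above 0 in DU145. Those genes were less than 1.5-fold lower in LNCaP. The differences between the lines in these contrasts were not tested. The related test of siTET2 against the mean of the other 3 arrays of a line did not pass limma's adjusted threshold (MCM3 adjusted p = 0.265, DTL adjusted p = 0.298).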

How the results depend on the processing

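In LNCaP, the count of 16 genes at least 1.5-fold lower with siTET2 was 2 with nc or the mean of both controls, 0 at 2-fold and 36 at 1.3-fold. The DU145 count of 1 was 0 with the stricter floor, the mean of both controls or 2-fold, and 5 at 1.3-fold. For miR-29b in LNCaP, 1 gene was lower against siControl and 2 were higher at 1.3-fold, in place of 0. Between the LNCaP controls the count of 2 higher was 0 with the stricter floor or at 2-fold, 5 with centred arrays and 10 at 1.3-fold; in DU145, 1 was lower at 1.3-fold. The common fit called 3 of the genes with the stricter floor or the trend, and 0 when any single array was left out. Its siTET2 median ranged from -0.48 to -0.23 as each array was left out. At an unadjusted p below 0.05 the 30 genes lower became 4 with no term for cell line. The shares of all genes were not taken at 1.3-fold, at 2-fold or, for this p, without the line term. Those counts therefore have no background beside them. Over all genes the 35 calls became 1 with no level floor, 87 with the stricter floor, 113 with the trend, 18 with nc as control, 0 with no line term and 0 to 132 as each array was left out. Of the 43 common siTET2 estimates, PRIM2 (0.21) and RFC1 (0.0246) were above 0 against nc. Leaving out 1 array, without LNCaP siTET2 or LNCaP siControl, turned 8 genes above 0: the ranges were -0.39 to 0.0439 for CDT1, -0.56 to 0.0076 for MCM3, -0.36 to 0.14 for GINS3, -0.21 to 0.0181 for PRIM2, -0.30 to 0.0785 for POLE, -0.68 to 0.0079 for DTL, -0.34 to 0.0559 for CHAF1A and -0.36 to 0.11 for E2F1. The causes were not tested. Cell line is a block in the common fit, so constructs are compared within each line; the labels number no replicates, so no replicate block could be added.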
